A study of Rattus rattus with 18 samples.

Results

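The family of miR-34 and miR-449 was examined on rat miRNA microarrays of brain tissue after transient middle cerebral artery occlusion (tMCAO). Its members are given by a list of names matched to the array's probe identifiers, a rule that reads no measured value: rno-miR-34a-5p, rno-miR-34b-5p, rno-miR-34b-3p, rno-miR-34c-5p, rno-miR-34c-3p, rno-miR-449a-5p and rno-miR-449a-3p. All 7 listed members were on the array, among 761 rat miRNA probes, and all 7 were among the 532 probes that were above background on at least 3 of the 18 arrays and were therefore tested. Tissue came from 9 male rats of the Sprague Dawley strain, 3 in each of 3 groups: sham surgery, tMCAO, in which a filament closed the middle cerebral artery before reperfusion, and a group labelled Remote limb postconditioning (PostC). Neither the labels nor the methods say whether the PostC rats also underwent the occlusion, or the age of the rats. The methods name 2 times after reperfusion at which tMCAO rats were sacrificed, without saying which applies to the tissue on these arrays. Each rat gave 1 array of the ischemic core and 1 of the surrounding tissue, labelled peri, so that 6 groups of 3 arrays were compared. The labels assign core to the temporo-parietal cortex and peri to the striatum, while the methods of the study give the reverse, so the regions are called core and peri here. All tissue was bulk, in which fewer cells of a type and less RNA per cell cannot be told apart.

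A miRNA is cut from a hairpin precursor, and its 5p and 3p strands, or arms, can each guide the silencing of mRNAs that pair with the seed near the 5′ end. The genes of miR-34a and of the miR-34b/c hairpins are known direct targets of the transcription factor p53, and miR-34a restrains cell cycle and survival genes and is expressed in neurons. The miR-34b/c and miR-449 hairpins are most abundant in multiciliated cells, which in the brain are the ependyma and the choroid plexus, and act there in the formation of motile cilia.

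The target sequences that the array files give for the probes are shown, 5′ to 3′, because they decide which members share a seed and which could share signal; capitals mark the seed, bases 2 to 8. The 5p arms of the 4 hairpins have the same seed, which 5 of the 761 probes on the array carry, the other being rno-miR-449c-5p.
rno-miR-34a-5p: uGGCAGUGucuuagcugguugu
rno-miR-34b-5p: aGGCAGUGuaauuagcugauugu
rno-miR-34c-5p: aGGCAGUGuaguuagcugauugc
rno-miR-449a-5p: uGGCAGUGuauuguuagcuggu
Of the 3p arms, miR-34b and miR-34c share a seed that no other probe on the array has, and the seed of rno-miR-449a-3p was found in no other probe.
rno-miR-34b-3p: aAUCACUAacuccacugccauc
rno-miR-34c-3p: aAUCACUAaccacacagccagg
rno-miR-449a-3p: cAGCUAACaugcaacugcucuc
Members are not fully separate measurements on such an array. The targets of rno-miR-34b-5p and rno-miR-34c-5p, both 23 bases long, were 2 base edits apart, those of rno-miR-34a-5p and rno-miR-34b-5p 4 edits, and those of rno-miR-34b-3p and rno-miR-34c-3p 5 edits. The nearest target outside the family was at least 6 edits from any family probe, and 7 or 8 edits from each of the 7 members. How much of a spot's signal came from a related miRNA was not tested. The GC content of the 7 targets ran from 39.1% in rno-miR-34b-5p to 50%, against a median of 47.8% over all 761 probes.

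The family differed widely in how far its spots rose above background. Each array had its own detection limit, 3 scaled median absolute deviations over the median of 612 empty spots, and it ran from 49.1 to 566 intensity units. rno-miR-34a-5p was above this limit on all 18 arrays, at 2.08 to 50.5 times the limit, as were 141 of the 761 probes. rno-miR-34c-3p was above it on 17 arrays, at up to 61.9 times the limit, and the single array below, core of tMCAO rat 3, reached 0.991 of its limit. rno-miR-34c-5p was above background on 12 arrays, rno-miR-34b-3p on 8, rno-miR-34b-5p on 5, and rno-miR-449a-5p and rno-miR-449a-3p on 3 each. The median tested probe was above background on 11 arrays.

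**Figure D1:**
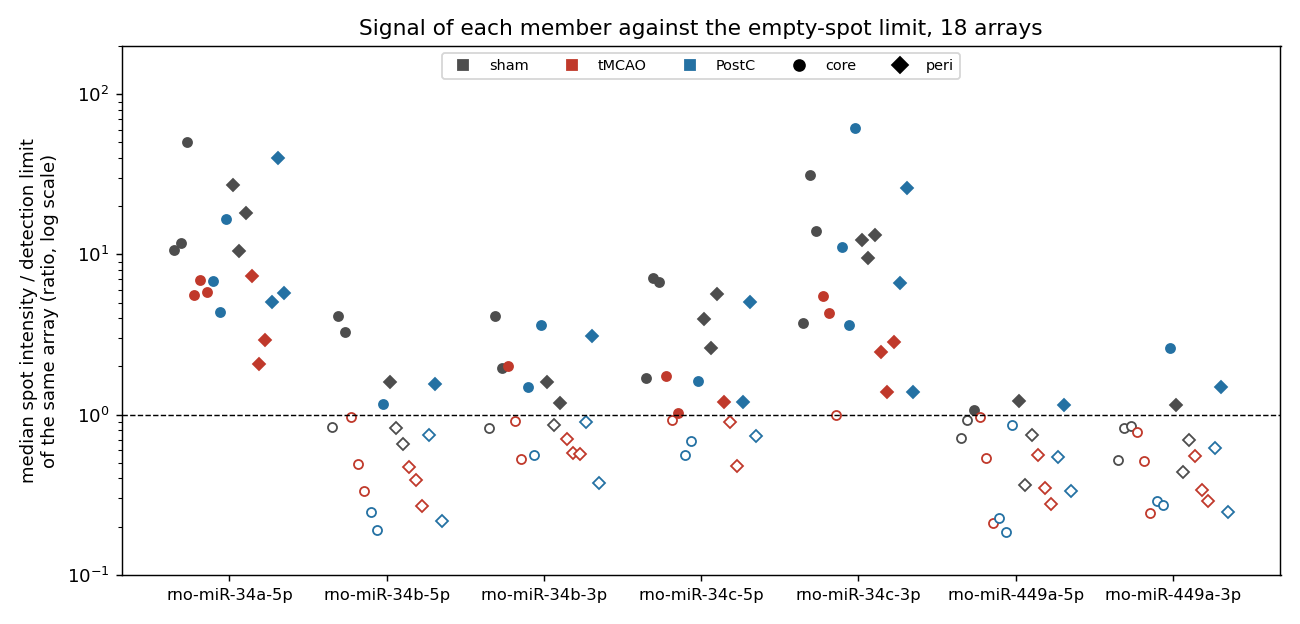
Median intensity of the 4 spots of each member divided by the detection limit of the same array (ratio, log scale), 1 symbol for each of 18 arrays; circles are core, diamonds peri, colours the 3 conditions, and open symbols lie at or below the dashed line at 1. rno-miR-34a-5p lies above the line on all 18 arrays, and both arms of miR-449a on only 3 each.

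Counted over the 7 members and 3 arrays of a group, 21 in all, signals above background numbered 14 in sham core, 14 in sham peri, 8 in tMCAO core, 7 in tMCAO peri, 11 in PostC core and 12 in PostC peri. Over all 761 probes the number above background on an array also varied, at 336 to 509 in sham core, 318 to 471 in sham peri, 233 to 447 in tMCAO core, 189 to 230 in tMCAO peri, 198 to 605 in PostC core and 188 to 524 in PostC peri. The limits differed as well, but the counts did not follow them on every array. The limits were 49.1 to 161 units in sham core and 84.9 to 171 in sham peri. In tMCAO they were 77.4 to 240 in core and 80.9 to 346 in peri. In PostC they reached 566 units in core and 329 in peri. At a limit of 80.9 the peri array of tMCAO rat 1 had 230 probes above background. That of sham rat 1, at a limit of 84.9, had 471. The part of the limits in the lower counts was not tested. With the dimmest 25% of the miRNA spots as background instead, rno-miR-34b-3p, rno-miR-34c-5p and rno-miR-34c-3p were detected on all 18 arrays, rno-miR-34b-5p on 10 and each arm of miR-449a on 9.

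Some arrays stood apart. The core array of sham rat 2 correlated at a mean r of 0.894 with the other sham core arrays, against 0.937 and 0.942 for those, over the 532 tested probes. A control probe on it, a-PUC2MM2d, stood at 27865 in the deposited normalized intensities, against 27.6 to 1044 on the other arrays. Its summed level of oligodendrocyte miRNAs (rno-miR-219a-5p and rno-miR-338-3p) was 13.62 on the log2 scale, against 10.92 and 11.09 in the other sham core arrays and 8.27 to 9.42 in tMCAO core. Its summed level of 7 choroid plexus and ependyma miRNAs was 12.25, against 10.19 and 10.47 in the other sham core arrays. The PostC core arrays were the least alike, with a mean r of 0.850 to 0.898 to the others of their group. The peri array of PostC rat 3 was at 0.896, against 0.938 and 0.936 for the other PostC peri arrays, and its control probe stood at 1044. Its summed log2 level of 4 red blood cell miRNAs was 12.71, against 10.93 and 10.02 on those arrays. It also held the highest rno-miR-34a-5p value, 11.35.

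rno-miR-34a-5p, the p53-induced member that was measured on all arrays, showed no difference that passed the test. Its normalised intensity (log2, after background correction and cyclic loess) was 10.56, 9.40 and 11.07 in the core of sham rats 1, 2 and 3. It was 9.21, 9.96 and 10.46 in tMCAO core and 11.31, 10.26 and 9.23 in PostC core. The 3 core groups overlapped, and each spread over more than 1 log2 unit. In peri the values were 10.81, 10.17 and 10.77 in sham, 10.89, 9.75 and 10.63 in tMCAO, and 9.93, 10.78 and 11.35 in PostC, again overlapping. For tMCAO against sham, limma with Benjamini-Hochberg adjustment over the 532 probes gave a log2 difference of -0.47 in core (SE 0.62, 95% interval -1.85 to 0.92, adjusted p = 0.654). In peri the log2 difference was -0.16 (SE 0.44, interval -1.11 to 0.78, adjusted p = 0.888). In the rat means, which average the 2 regions of a rat, it was -0.32 (SE 0.32, interval -1.03 to 0.40, adjusted p = 0.526). Without sham rat 2 the log2 differences were -0.94 in core and -0.65 in the rat means, and without sham rat 3 they were -0.11 and -0.09. These intervals include changes of 1 log2 unit downward in all 3 comparisons, so the arrays could not show whether a change of that size was present. PostC gave adjusted p-values of 0.955 and 0.991 against sham and 0.855 and 0.932 against tMCAO, in core and peri.

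**Figure D2:**
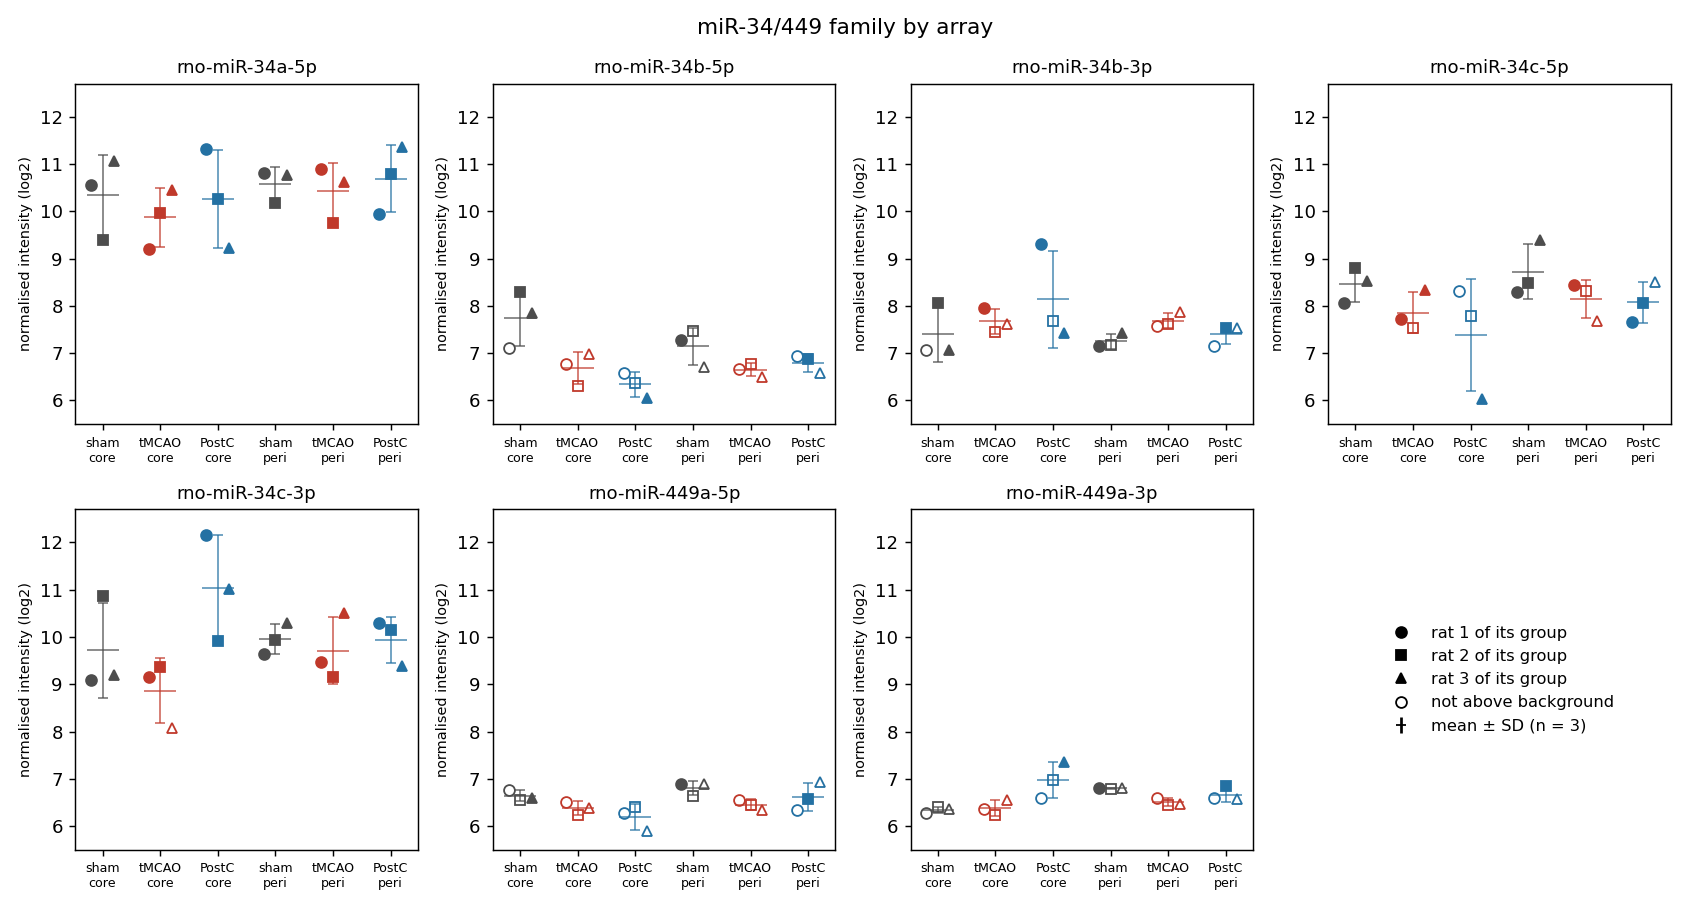
Normalised intensity (log2) of the 7 members in 6 groups; each symbol is 1 array, its shape the rat within its group, open symbols are signals not above background, and bars give mean ± SD (n = 3). rno-miR-34c-3p lies highest in PostC core, at 11.04 ± 1.12, and most rno-miR-34b-5p symbols are open.

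The signal of rno-miR-34b-5p was called lower after tMCAO in the rat means, the only call of a member in the 9 comparisons. The probe entered the test mainly through the sham arrays, where its signal was higher. It was above background on 3 sham, 0 tMCAO and 2 PostC arrays, so that without sham it would have missed the limit of 3 arrays; with no filter its limma adjusted p was 0.0307. The 3 sham rats had means of core and peri of 7.18, 7.88 and 7.28, and the 3 tMCAO rats 6.72, 6.54 and 6.74. Every tMCAO rat lay below every sham rat. The group levels were 7.45 ± 0.38 in sham and 6.67 ± 0.11 in tMCAO (SD, n = 3 rats each; limma adjusted p = 0.0289). In this comparison 1 of the 7 members was called, against 11.8% of the 532 tested probes.

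The signals behind this call were dim. rno-miR-34b-5p was above background on 3 of the 6 sham arrays and on none of the 6 tMCAO arrays, so that its level after tMCAO has only an upper bound. Against that bound, the higher of the probe's own signal and the lowest signal above background on the same array, the rat means gave no fold, because the bound lay above the sham mean. In core alone rno-miR-34b-5p was at 7.10, 8.29 and 7.85 in sham, of which rats 2 and 3 were above background, and at 6.77, 6.31 and 6.97 in tMCAO. No fold is given, since sham rat 1 was itself not above background; the limma adjusted p was 0.106, and 0.0267 to 0.363 over the alternatives, with the lowest, the only one past the threshold, where both regions were fitted with the rat as a random block. In peri it was at 7.27, 7.47 and 6.71 in sham and 6.67, 6.77 and 6.51 in tMCAO (adjusted p = 0.237), with only sham rat 1 above background. The deposited normalized intensities, made by the authors on a linear scale, were 55.1, 202 and 122 in sham core and 17.9, 0.01 and 40.8 in tMCAO core.

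The call was lost when any of 3 rats was left out, which also leaves fewer rats to test. Without sham rat 2 the limma adjusted p was 0.0546, without tMCAO rat 1 it was 0.0793 and without tMCAO rat 2 it was 0.126. Over all 18 alternatives in which the probe was tested it ran from 0.00505 to 0.132, with the lower signal in tMCAO in each. The oligodendrocyte miRNAs were lower in core as well: their summed log2 level was 10.92 to 13.62 in sham core and 8.27 to 9.42 in tMCAO core, and both were lower in the rat means without passing the test. Sham rat 2 had the highest core value of both rno-miR-34b-5p and this list. The part of tissue composition in the rno-miR-34b-5p result was not tested.

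**Figure D3:**
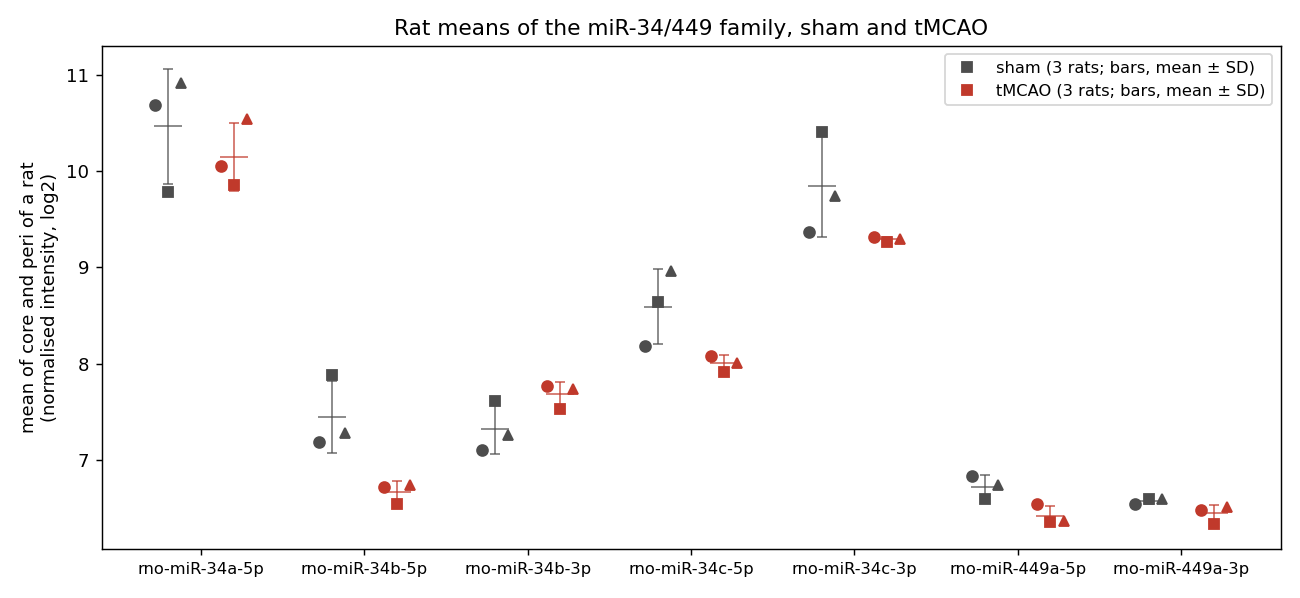
Mean of the core and peri normalised intensity (log2) of each sham and tMCAO rat for the 7 members; symbols are rats, bars mean ± SD (n = 3). Symbols do not mark signals below background. The sham and tMCAO rats do not overlap for 5 of the 7 members, against 41% of all tested probes. rno-miR-34b-5p is at 7.45 ± 0.38 in sham and 6.67 ± 0.11 in tMCAO. It was above background on 0 of the 6 tMCAO arrays, so that its tMCAO value is only an upper bound.

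The other seed-sharing arm of the same cluster, rno-miR-34c-5p, had rat means of 8.18, 8.64 and 8.96 in sham and 8.08, 7.91 and 8.01 in tMCAO. The groups did not overlap, as for 41% of all tested probes, but the log2 difference of -0.59 (SE 0.26) had a limma adjusted p of 0.149. The probe was above background on all 6 sham arrays and 3 of the 6 tMCAO arrays. The other tMCAO signals behind this difference are only upper bounds, so that its size is not fully measured. In core, where 2 of the 3 tMCAO arrays were above background, its log2 difference was -0.61 (SE 0.55, adjusted p = 0.513). In peri, where 1 of the 3 was, no fold is given (adjusted p = 0.501). rno-miR-34c-3p had rat means of 9.37, 10.40 and 9.74 in sham and 9.31, 9.27 and 9.29 in tMCAO, with a log2 difference of -0.55 (SE 0.36, adjusted p = 0.311), which was -0.27 without sham rat 2. By region its log2 difference was -0.85 (SE 0.68, adjusted p = 0.465) in core, or -0.27 without sham rat 2, and -0.25 (SE 0.42, adjusted p = 0.802) in peri.

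rno-miR-34b-3p, the partner arm of rno-miR-34b-5p, was at 7.06, 8.06 and 7.07 in sham core and 7.96, 7.45 and 7.61 in tMCAO core. These were above background on 2 sham and 1 tMCAO array. The groups overlapped (limma adjusted p = 0.755), and no fold is given. In peri it was at 7.15, 7.17 and 7.43 in sham and 7.57, 7.62 and 7.87 in tMCAO, without overlap, but no tMCAO array was above background there and the bound allowed no fold. The arms of miR-449a were below the limit on most arrays, at 0.184 to 1.21 times the limit for rno-miR-449a-5p and 0.244 to 2.59 times for rno-miR-449a-3p. rno-miR-449a-5p was above background on 2 of 6 sham arrays and no tMCAO array, and rno-miR-449a-3p on 1 of 6 and none. Their rat means were 6.72 ± 0.12 in sham and 6.42 ± 0.11 in tMCAO for rno-miR-449a-5p (adjusted p = 0.0832), and 6.57 ± 0.03 and 6.44 ± 0.09 for rno-miR-449a-3p (adjusted p = 0.475), and their bounds allowed no fold.

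Over the whole family, 0 of 7 members passed the limma test in core and 0 in peri, where 3.38% and 0.564% of all tested probes did. At an unadjusted p under 0.05 there were 1 and 3 members, against 21.8% and 15.2% of all tested probes. The sham and tMCAO values did not overlap for 2 members in core, against 41% of all tested probes, for 3 in peri, against 31.6%, and for 5 in the rat means, against 41%. The median log2 difference of the members was -0.47 in core, -0.30 in peri and -0.32 in the rat means, beside -0.05, -0.01 and -0.02 for all tested probes. The medians in core and in the rat means are the values of rno-miR-34a-5p. The median in peri is that of rno-miR-449a-3p, above background there on 1 sham and 0 tMCAO arrays, so that its size is not measured. Members lower in tMCAO numbered 5 in core, 6 in peri and 6 in the rat means. Most of these members share a seed, a hairpin or a cluster, so they are not independent, and those above background on few arrays passed the filter through the groups where they were bright, so these counts describe the list and support nothing further. The difference between the core and peri changes passed for no member, as for 0% of all tested probes, with limma adjusted p-values of 0.713 to 0.993. An unadjusted p under 0.05 was reached there by 0 members and 8.65% of all tested probes.

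In sham-operated rats, core and peri were compared within each rat. No member passed the test between the regions, and neither did any other probe (0%), with limma adjusted p-values of 0.841 to 0.980. The only member at an unadjusted p under 0.05 was rno-miR-449a-3p (against 5.45% of all tested probes), at 6.35 ± 0.07 in core and 6.80 ± 0.01 in peri. Its core value was below its peri value in all 3 sham rats, but it was above background on 1 of these 6 arrays.

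PostC was compared with sham and with tMCAO, and these comparisons share their arrays with the ones above. rno-miR-34c-3p had its highest group level in PostC core, at 12.17, 9.92 and 11.02. It was at 9.09, 10.87 and 9.19 in sham core and at 9.16, 9.37 and 8.08 in tMCAO core. Every PostC core array lay above every tMCAO core array, but the sham core range reached into that of PostC. The log2 difference was 2.17 against tMCAO (SE 0.68, 95% interval 0.66 to 3.68, limma adjusted p = 0.173) and 1.32 against sham (SE 0.68, adjusted p = 0.344), so neither passed the test. The latter was 0.75 without PostC rat 1 and 1.90 without sham rat 2. Over the alternatives the adjusted p against tMCAO ran from 0.036 to 0.460, and it passed with both regions in 1 fit and the rat as a random block (0.036). Cell type miRNAs also varied in PostC core: the summed log2 level of the choroid plexus and ependyma list was 10.07, 10.28 and 11.42 in rats 1, 2 and 3, that of the oligodendrocyte list 8.24, 8.66 and 10.48, and that of the leukocyte list 12.54 to 13.03. That of the red blood cell list was 10.62 to 10.87 in PostC core, below its 11.57 to 12.06 in tMCAO core and 11.29 to 12.09 in sham core. These sums did not overlap, as was so for 18.6% of all tested probes against tMCAO and 22% against sham. Against sham, rno-miR-451-5p, above background on all 18 arrays, was lower (limma adjusted p = 0.130). rno-miR-486, on 9 arrays, was higher there (limma adjusted p = 0.344). Against tMCAO both were lower (limma adjusted p = 0.127 and 0.546). The part of these lists in the values of the family was not tested. In PostC peri the probe was at 10.30, 10.15 and 9.38, within the range of the other peri groups.

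rno-miR-34c-5p was at 8.31, 7.79 and 6.04 in PostC core, of which only rat 3 was above background, and at 8.06, 8.80 and 8.53 in sham core (limma adjusted p = 0.342). No fold is given, since most of its PostC core signals are only upper bounds. Separate probes cannot be set against each other for level, and the difference between the arms is measured only where both were above background, on 11 of the 18 arrays. The log2 signal of the 3p probe minus that of the 5p probe, which says nothing of their relative levels and can only be set against the same difference on other arrays, was 1.03, 2.07 and 0.66 in sham core, 1.35, 1.45 and 0.91 in sham peri, 1.45 on 1 tMCAO core array and 1.02 on 1 tMCAO peri array. It was 2.65 and 2.08 on 2 PostC peri arrays and 4.99 on the single PostC core array, that of rat 3. With 1 measured array in PostC core the difference has no replicate there, and no test was made.

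Both arms of miR-34b were above background on 5 arrays. Their log2 difference, 3p minus 5p, was -0.23 and -0.78 on 2 sham core arrays, -0.12 on 1 sham peri array, 1.37 on 1 PostC core array and 0.67 on 1 PostC peri array. No tMCAO array measured the 5p arm, so that no group comparison of these differences was made.

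**Figure D4:**
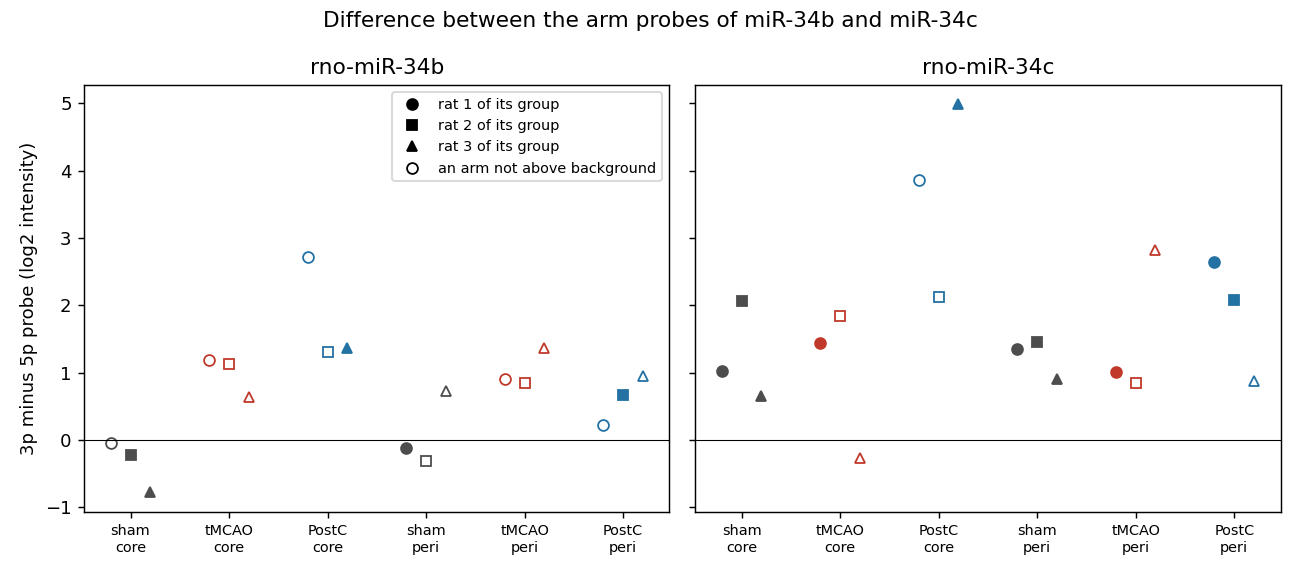
Log2 intensity of the 3p probe minus that of the 5p probe for miR-34b (left) and miR-34c (right) on each array of 6 groups; the shape gives the rat within its group, and an open symbol marks an array on which an arm was not above background. Both arms were above background on 5 of 18 arrays for miR-34b and on 11 for miR-34c, and only those filled symbols are measured differences.

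rno-miR-34b-5p was at 6.59, 6.38 and 6.05 in PostC core, below all 3 sham core arrays. It was above background on 1 of these 3 arrays and on 2 of the 3 in sham core, so no fold is given; the limma adjusted p against sham was 0.0855. Over the alternatives the adjusted p ran from 0.0132, with the rat as a random block, to 0.438, and only the former passed. rno-miR-449a-3p was at 6.61, 6.97 and 7.36 in PostC core and at 6.27, 6.40 and 6.37 in sham core, where no array was above background. In PostC core rat 3 alone was above background, so no fold is given, and the comparison did not pass the test (adjusted p = 0.154). Against sham, 0 of 7 members were called in core and 0 in peri, as for 0% of all tested probes in each. Values did not overlap for 3 members in core, against 22% of all tested probes, and for 0 in peri, against 5.08%. At an unadjusted p under 0.05 there were 3 members in core and 0 in peri, against 16.9% and 2.63%. Against tMCAO, 0 members were called in core, where 2.26% of all tested probes were, and 0 in peri, where 0% were. Values did not overlap for 2 members in core, against 18.6%, and for 1 in peri, against 7.89%. At an unadjusted p under 0.05 there were 2 members in core and 0 in peri, against 13.3% and 5.83%. The methods' t-test, after the same adjustment, called 0 members in each of the 9 comparisons.

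Ranked by mean, the 6 groups of each member were mostly separated by less than the spread between rats. Of 35 gaps between neighbouring group means, 4 were wider than the pooled SD of that member. For rno-miR-34c-3p these were PostC core over sham peri (1.08, at 1.39 pooled SD) and tMCAO peri over tMCAO core (0.84, at 1.09). The other 2 were of rno-miR-34b-5p, sham core over sham peri and sham peri over PostC peri, groups in which it was above background on 2, 1 and 1 of 3 arrays, so that their order is not measured. For rno-miR-34a-5p the order from lowest to highest was tMCAO core, PostC core, sham core, tMCAO peri, sham peri and PostC peri, from 9.87 ± 0.63 to 10.69 ± 0.71, and no neighbours differed beyond their spread.

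Correlations across the 18 arrays, which include the group differences and share the normalization, are given only for members above background on at least 17 of them. Pearson's r between rno-miR-34a-5p and rno-miR-34c-3p was 0.00176. Among the 140 other probes above background on all 18 arrays, those most like rno-miR-34a-5p were rno-miR-29c-5p (r = 0.802), rno-miR-154-5p (r = 0.784), rno-miR-324-5p (r = 0.758), rno-miR-497-5p (r = 0.690) and rno-miR-24-3p (r = 0.673).

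Other miRNAs whose genes or processing are linked to p53 were taken from a list of 8, all tested. After tMCAO 1 of the 8 was called, rno-miR-215, above background on 9 of 18 arrays, which was lower in the rat means (limma adjusted p = 0.0175), and 0 were called in core or peri; 11.8% of all tested probes were called in the rat means. Their median log2 difference was -0.08 in the rat means. Of 7 choroid plexus and ependyma miRNAs, 2 could be tested and 0 were called. Between 3 and 6 of the 7 were not above background on any array of a group, and their summed log2 level was 10.19 to 12.25 in sham core, 9.88 to 10.29 in tMCAO core and 10.07 to 11.42 in PostC core. In peri it was 10.10 to 10.36 in sham, 9.68 to 10.10 in tMCAO and 9.60 to 11.22 in PostC. Of 6 leukocyte miRNAs 5 were tested and 2 were called higher both in core, where 3.38% of all tested probes were called, and in the rat means (11.8%): rno-miR-150-5p, above background on all 18 arrays, and rno-miR-155-5p, above it on only 3. Of the tested leukocyte miRNAs that were not called, rno-miR-146a-5p, above background on all 18 arrays, and rno-miR-223-3p, on 4, were higher in tMCAO core. rno-miR-142-5p, above background on 5 arrays, was lower there. rno-miR-142-3p, above background on 1 array, was not tested. The whole leukocyte list had a summed log2 level of 12.89 to 13.59 in tMCAO core against 11.69 to 11.98 in sham core. Against the same 11.8%, 2 of 5 neuronal miRNAs fell and 1 of the 2 tested red blood cell miRNAs rose in the rat means, and of the 2 oligodendrocyte miRNAs 0 were called. No other call was made in these lists in any of the 9 comparisons. The part of these cell types in the family's values was not tested.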

How the data were processed

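Total RNA (2 µg) of 18 brain samples was hybridised, 1 sample per array, to single-colour (Cy5) µParaflo chips carrying 4 spots for each of 761 rat miRNA probes. The authors deposited spot intensities with neither background subtraction nor normalization, and a table of linear intensities that had been background-subtracted and normalized by LOWESS; the latter served as an alternative. The organism is labelled Rattus rattus, although Sprague Dawley is a strain of Rattus norvegicus. The extraction is given as miRNeasy in the labels and Trizol in the methods.

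Spot intensities were corrected with normexp (offset 50) over all spots, since the files hold no local background. They were log2 transformed, normalised by cyclic loess over 18 arrays with control spots given weight 0, and averaged over the 4 spots of a probe. A probe was called above background where its median spot exceeded the median of 612 empty spots plus 3 scaled median absolute deviations, and was tested where this held on at least 3 arrays. Sequences were read from the spot files' target column, without genome coordinates.

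Groups were compared with limma 3.58.1 (lmFit and eBayes with a variance trend) in R 4.3.3, with the rat as replicate, all 3 conditions in 1 fit, and Benjamini-Hochberg adjustment at 0.05 over all tested probes. All values are relative to the other miRNAs, and the number of arrays limits the precision. With 3 rats against 3 an exact test cannot give a p under 0.1. On simulated data with a log2 change of 1 in 100 of 532 probes, the fit recovered 80.2% in the rat means, 36.3% in core arrays and 63.5% in peri arrays, and at a log2 change of 2, 99.4%, 86.7% and 97.9%.

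All 7 members are named, with the 5 probes whose levels correlate best with the member detected most often. The list of member names, the other lists (p53-linked, choroid plexus and ependyma, neurons, leukocytes, red blood cells, oligodendrocytes) and tests were chosen with earlier results of these data known. Figures were drawn with matplotlib. The alternatives were background correction, normalization, filters, detection limits, the deposited values, no trend of the variance, a block for the replicate number, the rat as a random block, a fit of only the 2 groups, the methods' t-test and leaving out each rat.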

Additional observations from a re-analysis of the deposited data

How the results depend on the processing

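The count of 1 called member for tMCAO against sham in the rat means, rno-miR-34b-5p, became 0 with plain background subtraction, with the deposited intensities at a floor of 50, with only probes detected on all arrays (which leaves 1 member to test) and with the methods' t-test. It ranged from 0 to 1 when each rat was left out, and was 0 without sham rat 2, tMCAO rat 1 or tMCAO rat 2. Median scaling gave 3 calls, adding rno-miR-34c-5p and rno-miR-34c-3p, while it called 130 of all 532 tested probes in place of 63, and in peri 1 call, rno-miR-34c-5p, in place of 0. That scaling moved the median log2 difference of all tested probes in peri from -0.01 to -0.42 and called 128 of them in place of 3. The deposited intensities at a floor of 1 moved that median to -0.34 in core and -0.23 in peri. With both regions in 1 fit and the rat as a random block (correlation -0.04), 1 member was called in place of 0 for tMCAO against sham in core (rno-miR-34b-5p), 2 for PostC against sham in core (rno-miR-34b-5p and rno-miR-449a-3p) and 2 for PostC against tMCAO in core (rno-miR-34c-3p and rno-miR-449a-3p). The same fit called 46, 32 and 30 of all tested probes in these comparisons, in place of 18, 0 and 12. The cause of these changes was not tested.

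With the replicate number as a block, 1 member was called in the rat means and 0 in the other comparisons, as without it. The numbers did not pair the rats: same-numbered rats' deviations from their group means correlated between -0.45 and 0.44. The difference of rno-miR-34a-5p in peri, -0.16 on the log2 scale, became 0.0097 with plain subtraction and ran from -0.40 to 0.17 when each rat was left out, with 0.17 without tMCAO rat 2, and was -1.32 (limma adjusted p = 0.0515) with median scaling. That of rno-miR-34c-3p in peri, -0.25, ran from -0.65 to 0.027 when each rat was left out, with 0.027 without tMCAO rat 2, and was -1.44 (limma adjusted p = 0.0506) with median scaling. Over all their alternatives the adjusted p-values ran to 0.994 and 0.983.

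Signals near the empty-spot limit restrict all statements on both arms of miR-449a and on rno-miR-34b-5p. For rno-miR-34a-5p, above background throughout, the pooled SD within groups was 0.73 on the log2 scale, which holds both rat and array variation.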

Other observations

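Probes for 3 further arms of the family, which the list of members does not hold, were also on the array. rno-miR-34a-3p, the partner arm of rno-miR-34a-5p, was above background on 7 of 18 arrays and its normalised intensity ran from 6.62 to 7.83 on the log2 scale. rno-miR-449c-3p was above background on 1 array, and rno-miR-449c-5p, which carries the shared 5p seed, on 0. The median SD over the 4 spots of a member on an array ran from 0.10 in rno-miR-449a-3p to 0.17 in rno-miR-34c-3p on the log2 scale, where the pooled SD between rats was 0.18 and 0.77.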
